A study of Homo sapiens with 16 samples.

Results

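The genes described here are 9 targets of the transcription factor NRF2, taken from the 59428 genes of the count table by their symbols: GCLC, GCLM and SLC7A11 of glutathione synthesis, TXNRD1 and SRXN1 of the thioredoxin system, HMOX1 of heme breakdown, NQO1 and ME1 of quinone and NADPH metabolism, and AKR1C1, which reduces carbonyls and steroids. The choice rests on their known function, and its rule uses no measured value. It was made, however, with earlier results of these data known. Both lines, OVCAR3 and UWB1.289, derive from ovarian carcinoma, the former with intact and the latter with mutated BRCA1, and each is a single line, so the number of replicates does not speak for other tumours. OVCAR3 was kept for 96 h in 7.5 µM olaparib, an inhibitor of the PARP enzymes of DNA strand break repair, and UWB1.289 for 96 h in 3.5 µM. The control cultures of both lines received the solvent DMSO for the same time. OVCAR3 grew in RPMI medium with serum and insulin and UWB1.289 in a mixture of MEGM and RPMI with less serum, so dose, medium, BRCA1 status and the line itself cannot be told apart. Each of the 4 groups had 4 replicates. Nothing states that these came from separately grown cultures, so the p-values measure the spread between these libraries, which may be technical. RNA was sequenced from the 3′ ends of polyadenylated transcripts, and total counts ranged from 5599571 to 7730228 per library. In such bulk samples fewer cells that express a gene and less RNA per cell cannot be told apart.

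NRF2, encoded by NFE2L2, is held at a low level in unstressed cells because KEAP1 presents it to a CUL3 ubiquitin ligase. Oxidants and electrophiles modify KEAP1, NRF2 then accumulates, pairs with a small MAF protein and binds antioxidant response elements in its target genes, from which BACH1 can displace it. In carcinomas the pathway is known for constant activity after loss of KEAP1 or mutation of NFE2L2, and its targets supply glutathione, thioredoxin and NADPH.

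Of 9 markers of ovarian serous carcinoma and epithelium, 9 were detected in OVCAR3 and 8 in UWB1.289, where WT1 was at or near 0. The summed normalized count of these markers was 27549 to 29273 in OVCAR3 with DMSO and 17036 to 19004 with olaparib, and 49142 to 53016 and 38718 to 47600 in UWB1.289. In OVCAR3 the keratins KRT18 and KRT8 went from means of 11640 and 5405 to 5726 and 2602. Means of the other markers there were also lower with olaparib, PAX8 only slightly (2887 to 2769), except that of KRT7 (2244 to 2551). In UWB1.289 KRT18 went from 27240 to 20607, while the means of PAX8, EPCAM and MUC16 were higher with olaparib. The 3 leukocyte markers reached at most 9.64 in sum in an OVCAR3 library. In UWB1.289 they summed to 49.6 to 69.4 with DMSO and to 88.4 to 118 with olaparib. There CD14 went from a mean of 20.5 to 49.9 and PTPRC from 39.8 to 51.1. The 3 fibroblast markers summed to 141 to 199 with DMSO and 199 to 255 with olaparib in OVCAR3, and to 284 to 395 and 163 to 205 in UWB1.289, where COL1A2 went from a mean of 314 to 153 and DCN was at 0. The 3 endothelial markers reached at most 16.9 in an OVCAR3 library and 65.2 in a UWB1.289 library, where 2 of 3 were detected with DMSO and 3 of 3 with olaparib. The part of these shifts in the results was not tested.

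Of the 9 genes, 7 were counted well enough to be tested in all 4 comparisons. SRXN1 had 0 counts in all 16 libraries and AKR1C1 had 51 in total, with at most 9 in a library, and neither passed the filter on low counts. Both are described after the tested genes.

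The core of the antioxidant response element, written here as TGACNNNGC with N for any base, was searched on both strands of 300-base promoter windows, which run from 250 bases before to 50 after each RefSeq transcription start (GRCh38.p14). Windows were found for 7 of the 9 genes (8 windows, since TXNRD1 has a pair), and not for HMOX1 and SLC7A11. The core occurred in 4 of the 8 windows, those of GCLM, ME1 and both of TXNRD1, and in 13.3% of all 35116 promoter windows. The bases before the start are shown for the outermost RefSeq start of each of these genes, to set the shared letters of GCLM, which differed most between groups, beside those of ME1 and TXNRD1. Capitals mark the match, and all are written 5′ to 3′ on the strand of the gene.
GCLM, chr1:93909431-93909680, minus strand: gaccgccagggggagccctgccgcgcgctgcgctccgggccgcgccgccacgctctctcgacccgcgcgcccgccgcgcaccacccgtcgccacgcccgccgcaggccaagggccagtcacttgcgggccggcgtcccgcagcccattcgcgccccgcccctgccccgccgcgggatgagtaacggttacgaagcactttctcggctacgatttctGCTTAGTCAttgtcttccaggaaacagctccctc
ME1, chr6:83431052-83431301, minus strand: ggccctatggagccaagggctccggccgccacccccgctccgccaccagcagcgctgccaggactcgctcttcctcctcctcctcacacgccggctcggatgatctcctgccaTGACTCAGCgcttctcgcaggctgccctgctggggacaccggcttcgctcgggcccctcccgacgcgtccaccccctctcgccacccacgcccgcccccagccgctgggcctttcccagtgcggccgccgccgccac
TXNRD1, chr12:104215529-104215778, plus strand: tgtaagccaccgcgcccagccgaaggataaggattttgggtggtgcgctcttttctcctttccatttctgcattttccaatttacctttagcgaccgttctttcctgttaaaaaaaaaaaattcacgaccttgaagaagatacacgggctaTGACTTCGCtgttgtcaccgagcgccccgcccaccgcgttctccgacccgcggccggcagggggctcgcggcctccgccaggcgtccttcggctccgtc
In GCLM the match lay at positions -34 to -26 from the start and ran on the other strand, where it reads TGACTAAGC. In GENCODE release 44 GCLM begins further out, at 93909456, which is the match's base nearest to the gene. In ME1 it lay at -137 to -129 and reads TGACTCAGC, and a further match followed the start. In TXNRD1 the match shown lay at -99 to -91, a further match spanned the start itself, and the window at the downstream start held TGACAAAGC on the other strand at -102 to -94 (chr12:104286930-104286938). No match in the windows of GCLC, NQO1, SRXN1 and AKR1C1 says only that these letters do not occur there. These matches are descriptions of sequence and were not measured as binding sites.

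Olaparib changed few of the 7 genes. In OVCAR3, GCLM and HMOX1 rose and the other 5 did not pass the test, and in UWB1.289 none of the 7 passed, although NQO1 did so in some other fits given with its values. A gene was said to rise or fall at an adjusted p below 0.1 in edgeR's quasi-likelihood test, with Benjamini-Hochberg adjustment over all genes tested, and to be differentially expressed if it also changed more than 2-fold with an average normalized count above 10. In OVCAR3 2 of 7 rose and 0 fell, against 15.5% of the 13031 genes tested that rose and 16% that fell. None of the 7 was differentially expressed, against 5.23% of all genes, and the groups did not overlap for 1 of 7, against 25.7% of all genes. The median log2 fold change was 0.11 over the 7 genes and -0.01 over all genes tested. In UWB1.289 0 of 7 rose and 0 fell by edgeR, and likewise by DESeq2, against 7.77% and 6.1% of 12748 genes, and none was differentially expressed, against 2.21%. SLC7A11 was the gene with an unadjusted p under 0.05 there, at 0.0474. The groups of UWB1.289 overlapped for all 7 genes, against 14.7% of all genes whose groups were apart, and the medians were -0.06 and -0.004. Of these shares only that of the genes that rose in OVCAR3 was above its background, and the others were below theirs.

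**Figure D1:**
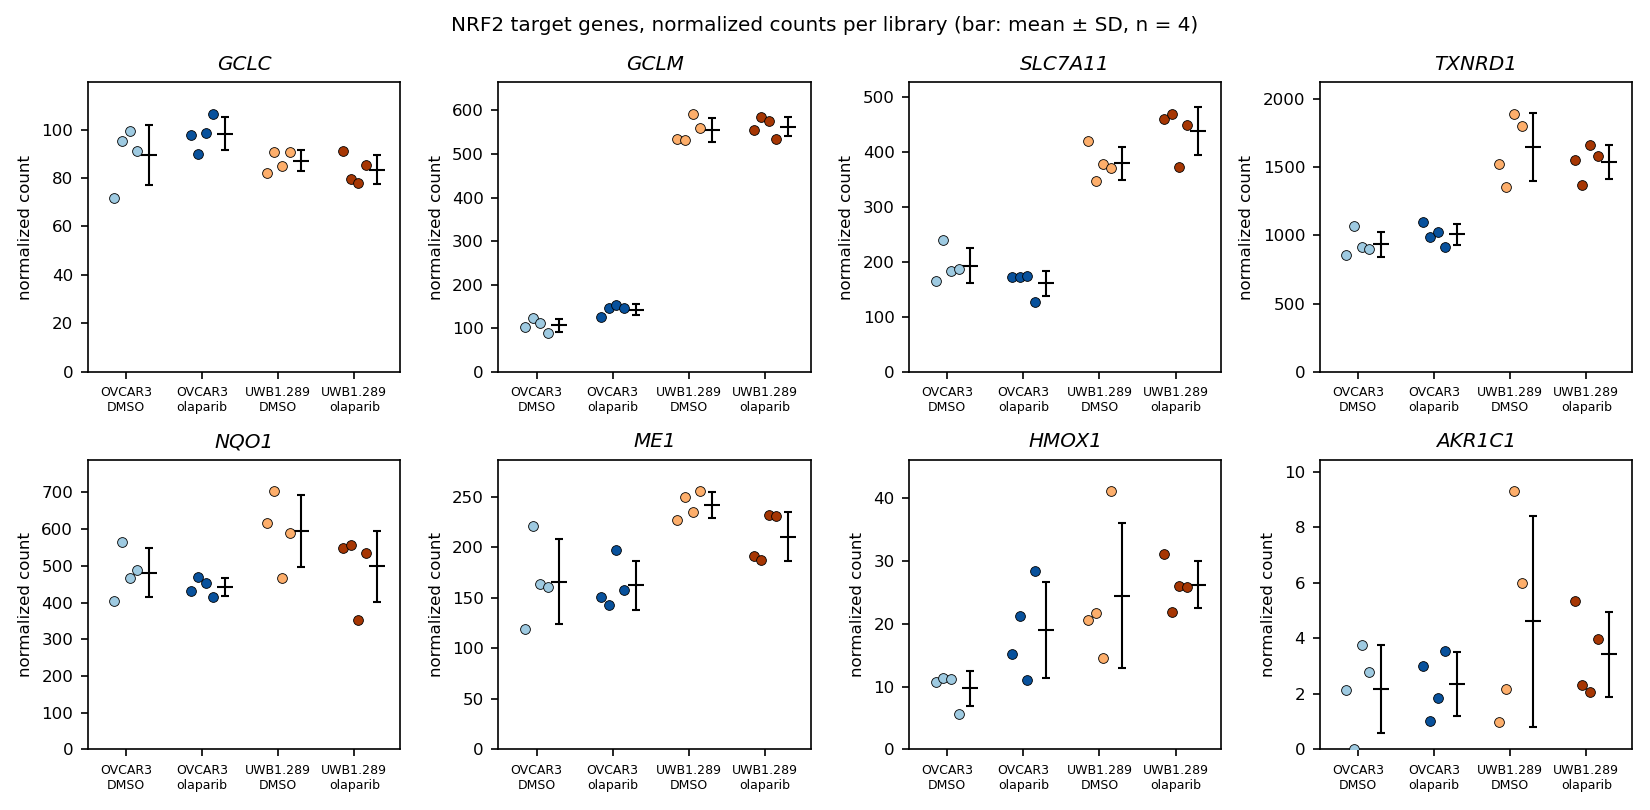
Normalized counts (y axis, linear, from 0) of 8 of the genes in each of the 16 libraries, by line and treatment on the x axis, with the mean and SD of the 4 libraries beside the points; SRXN1 is left out because it was at 0 throughout. GCLM lay between 88.3 and 154 in all OVCAR3 libraries and between 531 and 593 in all UWB1.289 libraries.

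GCLM encodes the modifier subunit of glutamate-cysteine ligase, the enzyme of the first step of glutathione synthesis (chromosome 1, 93885199 to 93909456, minus strand; this and the later gene positions are from GENCODE release 44 on hg38). Its normalized count, scaled to the mean effective library size, was 104, 123, 113 and 88.3 in the OVCAR3 libraries with DMSO and 126, 146, 154 and 146 with olaparib. Every olaparib library was above every control, though the nearest values, 123 and 126, were close. The mean rose from 107 ± 14.5 to 143 ± 12.0 (SD, n = 4 in each group), a log2 fold change of 0.43 with SE 0.14 and an adjusted p of 0.0264 in edgeR. GCLM kept this call in each of the 8 fits without 1 library. In UWB1.289 it was 535, 531, 593 and 560 with DMSO and 554, 584, 575 and 535 with olaparib. These groups overlapped almost completely, and the log2 fold change was 0.02, with a 95% interval from -0.15 to 0.20.

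GCLC encodes the catalytic subunit of the same enzyme (chromosome 6, 53497341 to 53616970, minus strand). The libraries held 71.8, 95.3, 99.5 and 91.1 normalized counts in OVCAR3 with DMSO and 97.7, 90.0, 98.7 and 107 with olaparib. In UWB1.289 they held 82.1, 90.8, 84.8 and 90.7 with DMSO and 91.0, 79.6, 78.0 and 85.4 with olaparib. The subunit thus lay in one range in all 4 groups. The olaparib log2 fold change was 0.14 in OVCAR3 (95% interval -0.17 to 0.45) and -0.06 in UWB1.289 (95% interval -0.36 to 0.24), and neither passed the test.

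SLC7A11 encodes the cystine carrier of the xCT exchanger, which brings in the cysteine for glutathione (chromosome 4, 138164097 to 138242349, minus strand). In OVCAR3 it was at 165, 239, 183 and 187 normalized counts with DMSO and at 172, 172, 174 and 128 with olaparib. In UWB1.289 it was at 421, 348, 379 and 371 with DMSO and at 461, 471, 373 and 450 with olaparib. The groups overlapped in both lines, and a single olaparib library of OVCAR3, replicate 4, lay well under its 3 neighbours. The log2 fold changes of -0.26 in OVCAR3 (SE 0.14, adjusted p 0.187 in edgeR) and 0.21 in UWB1.289 (SE 0.10, adjusted p 0.210 in edgeR) had opposite signs and did not pass the test.

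TXNRD1 encodes the cytosolic thioredoxin reductase, which spends NADPH to keep thioredoxin reduced (chromosome 12, 104215779 to 104350307, plus strand). OVCAR3 held 857, 1065, 914 and 901 normalized counts with DMSO and 1101, 991, 1025 and 917 with olaparib. UWB1.289 held 1525, 1353, 1892 and 1804 with DMSO and 1552, 1368, 1663 and 1577 with olaparib. Within each line the treated and control libraries overlapped, and with 20470 counts in total TXNRD1 was the most deeply counted of the 9 genes. Its log2 fold changes were 0.11 (95% interval -0.06 to 0.29) and -0.09 (95% interval -0.29 to 0.11).

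NQO1 encodes a quinone reductase widely used as a readout of NRF2 activity (chromosome 16, 69706996 to 69726668, minus strand). In OVCAR3 it was at 404, 565, 466 and 489 normalized counts with DMSO and 432, 470, 454 and 415 with olaparib, with a log2 fold change of -0.12 (95% interval -0.32 to 0.09). In UWB1.289 it was at 616, 704, 467 and 590 with DMSO and 549, 557, 354 and 534 with olaparib. The olaparib library of UWB1.289 was lower than the DMSO library of the same number in all 4 numbers, and replicate 3 was the lowest of its group in both. The log2 fold change was -0.25 with SE 0.13 and an adjusted p of 0.257 in edgeR. Same-numbered libraries were weakly correlated across genes in both lines. With the replicate number as a block NQO1 fell by 0.26 in UWB1.289 (adjusted p 0.0399 in edgeR), so that 1 of 7 genes was lower there. Without the block it was also lower when DMSO replicate 3 was left out, at -0.35 with an adjusted p of 0.0987 in edgeR.

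ME1 encodes the cytosolic malic enzyme, a source of NADPH (chromosome 6, 83210402 to 83431051, minus strand). OVCAR3 held 119, 221, 163 and 161 normalized counts with DMSO and 151, 143, 197 and 158 with olaparib, and the olaparib values lay inside the range of the controls. UWB1.289 held 228, 250, 235 and 256 with DMSO and 192, 188, 232 and 231 with olaparib. The log2 fold changes were -0.02 (95% interval -0.35 to 0.30) and -0.20 (95% interval -0.43 to 0.04), and neither passed the test.

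HMOX1 encodes the inducible heme oxygenase, which breaks heme down to biliverdin, iron and carbon monoxide (chromosome 22, 35380361 to 35394214, plus strand). It was the least counted of the genes tested, with 6 to 48 raw counts per library, so each value carries a large counting error. In OVCAR3 it was at 10.7, 11.3, 11.3 and 5.58 normalized counts with DMSO and 15.1, 21.2, 11.1 and 28.4 with olaparib. The olaparib libraries were higher except replicate 3, which lay within the controls. The mean rose from 9.73 ± 2.78 to 19.0 ± 7.57 (SD, n = 4 in each group), a log2 fold change of 0.97 with SE 0.38 and an adjusted p of 0.0661 in edgeR. The call was lost without DMSO replicate 1, DMSO replicate 4, olaparib replicate 2 or olaparib replicate 4 (4 of 8 fits, adjusted p from 0.103 to 0.222 in edgeR), and the log2 fold change then lay between 0.70 and 1.02. In UWB1.289 HMOX1 was at 20.5, 21.6, 14.5 and 41.1 with DMSO and 31.0, 21.9, 26.0 and 25.8 with olaparib, with a log2 fold change of 0.08 (95% interval -0.55 to 0.71). In no gene of the 7 did the interval in UWB1.289 reach a 2-fold change in either direction.

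**Figure D2:**
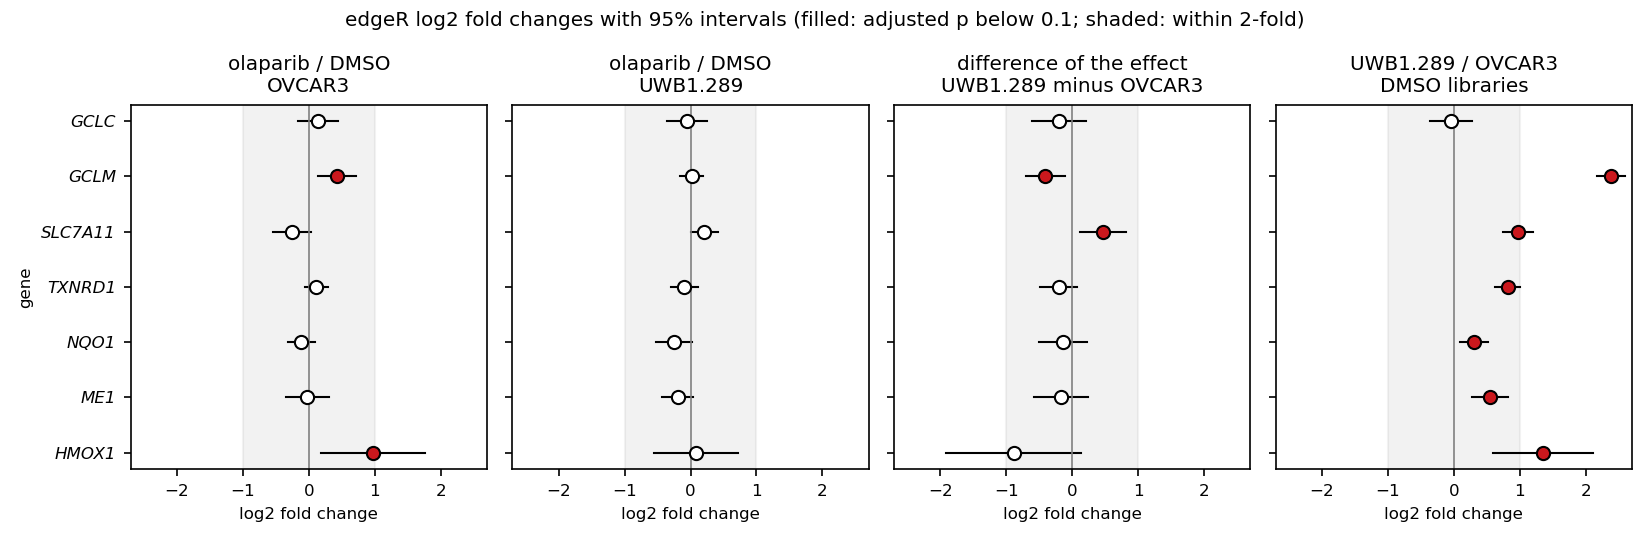
Log2 fold changes (x axis) of the 7 genes tested (y axis) with 95% intervals, for olaparib in each line, for the interaction of olaparib and line and for UWB1.289 against OVCAR3 with DMSO. Filled points have an adjusted p below 0.1 and the grey band is a change within 2-fold: the olaparib points lie inside the band, and GCLM at 2.38 and HMOX1 at 1.35 lie outside it between the lines.

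Whether olaparib acted differently in the lines was tested as an interaction over all 16 libraries. The difference, UWB1.289 minus OVCAR3, passed for GCLM at -0.41 (SE 0.14, adjusted p 0.0867 in edgeR) and for SLC7A11 at 0.47 (SE 0.17, adjusted p 0.0918 in edgeR). So 1 of 7 was higher, against 5.1% of 14243 genes, and 1 of 7 was lower, against 5.83%. No member was differentially expressed in this contrast, against 3.66% of all genes, and the medians were -0.20 for the 7 genes and 0.01 for all. GCLM rose in OVCAR3 alone, while SLC7A11 passed in neither line and had opposite signs in the pair. Both differences stood close to the threshold. GCLM held in 5 of the 16 fits without 1 library, those without UWB1.289 DMSO replicate 1 or 2, UWB1.289 olaparib replicate 2, OVCAR3 DMSO replicate 2 or OVCAR3 olaparib replicate 1, and in the others its adjusted p in edgeR was 0.1001 to 0.211. SLC7A11 held in 4 of 16, those without UWB1.289 DMSO replicate 1, UWB1.289 olaparib replicate 3, OVCAR3 DMSO replicate 1 or OVCAR3 olaparib replicate 3, and in the others it was 0.101 to 0.216. The difference for HMOX1 was larger at -0.89 but its interval ran from -1.90 to 0.13 (adjusted p 0.318 in edgeR), and those of TXNRD1, GCLC, ME1 and NQO1 lay between -0.20 and -0.13 and did not pass.

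The estimated difference between the lines was larger than that with olaparib in either line for 6 of the 7 genes, GCLC being the exception. On DMSO, 6 of the 7 genes were higher in UWB1.289 and 0 lower, against 39.8% of 13366 genes that were higher and 40.1% that were lower. The groups did not overlap for 5 of 7, against 69.4% of all genes, and 2 of 7 were differentially expressed, against 38.4%. The share that was higher thus lay above its background, the share with groups apart near it and the share differentially expressed below it. The median log2 difference was 0.81 over the 7 genes and -0.02 over all genes. This comparison shares its DMSO libraries with the olaparib comparisons.

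The largest line difference was in GCLM, whose DMSO mean was 555 ± 28.3 in UWB1.289 and 107 ± 14.5 in OVCAR3, 5.20-fold apart (log2 difference 2.38, SE 0.10, adjusted p 1.25e-18 in edgeR). Its partner subunit GCLC was at 87.1 ± 4.38 and 89.4 ± 12.2, a log2 difference of -0.04 (95% interval -0.36 to 0.27). The modifier and the catalytic subunit of the ligase thus stood in different relation in the lines, one far higher in UWB1.289 and the other within the spread of the libraries. SLC7A11 was 1.96-fold higher in UWB1.289 (380 ± 30.5 against 194 ± 32.0, log2 0.97, SE 0.11, adjusted p 2.68e-09 in edgeR).

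HMOX1 was higher by 1.35 on the log2 scale (24.4 ± 11.5 against 9.73 ± 2.78, SE 0.37, adjusted p 0.00164 in edgeR). TXNRD1 was higher by 0.81 (1643 ± 249 against 934 ± 90.7, SE 0.09, adjusted p 1.95e-09 in edgeR), and ME1 by 0.54 (242 ± 13.1 against 166 ± 42.0, SE 0.13, adjusted p 0.000472 in edgeR). In these 3 genes every UWB1.289 library with DMSO lay above every OVCAR3 library with DMSO. Without UWB1.289 DMSO replicate 4, the library at 41.1, HMOX1 was higher by 0.97 and still passed (adjusted p 0.0280 in edgeR), but was no longer past 2-fold. NQO1 was higher by 0.30 (594 ± 98.1 against 481 ± 66.5, SE 0.10, adjusted p 0.0105 in edgeR), and its groups overlapped.

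Ordered over the 4 groups, GCLM was the gene with the clearest steps: OVCAR3 with DMSO, OVCAR3 with olaparib and then both UWB1.289 groups, of which the last pair overlapped. TXNRD1 and SLC7A11 each had 1 step, between the OVCAR3 groups and the UWB1.289 groups. In NQO1, HMOX1, GCLC and ME1 every neighbour in the order of means overlapped with the next.

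The remaining 2 of the 9 genes gave little or no signal. SRXN1 encodes sulfiredoxin, which restores overoxidized peroxiredoxins (chromosome 20, 646615 to 653200, minus strand). Its row was at 0 in all 16 libraries, which at 3 counts allows at most 0.536 CPM in the library of lowest depth. In GENCODE release 44 a read-through gene on the same strand (ENSG00000270299, 646626 to 675800) shares 2292 of the 2528 exonic bases of SRXN1, 90.7%, and 989 of its last 1000 bases, from which libraries of this type draw their reads. How reads in overlapping genes were counted is not given in the sources used here, and the part of this overlap in the zeros was not tested, so no statement on SRXN1 expression follows.

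AKR1C1 encodes a hydroxysteroid dehydrogenase that is known as a strong NRF2 target in other carcinomas (chromosome 10, 4963253 to 4983283, plus strand). It had 0 to 9 raw counts per library, and its normalized counts were 2.14, 0, 3.75 and 2.79 in OVCAR3 with DMSO, 3.02, 1.01, 1.85 and 3.55 with olaparib, 0.977, 2.16, 9.31 and 5.99 in UWB1.289 with DMSO and 5.35, 2.31, 2.08 and 3.97 with olaparib. All 4 groups overlapped, and a difference was not detectable at this depth. Its related neighbours AKR1C2 and AKR1C3, between which reads may be split, had 26 and 185 counts in total. AKR1C3 was tested in UWB1.289 with a log2 fold change of 0.17 and did not pass.

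By the root-mean-square difference of log2 CPM over the 16 libraries, each gene centred on its own mean, IDH2 and NUP93 had the pattern most like GCLM (0.13 and 0.15, against an SD of 1.13 of GCLM itself). Those nearest to TXNRD1 were SSB and DDX18 (0.10 and 0.11, SD 0.39), to SLC7A11 ZDHHC7 and TPT1-AS1 (0.14 and 0.15, SD 0.65) and to NQO1 S100A10 and GLUL (0.13 and 0.16, SD 0.25). For ME1 they were TPP2 and APRT (0.14 and 0.15, SD 0.33), for GCLC CENPO and PARD3 (0.11 for both, SD 0.14) and for HMOX1 CDC34 and PPP1R14B-AS1 (0.34 and 0.35, SD 0.65). For GCLC, HMOX1, NQO1 and ME1 the distance is a large part of the gene's own spread, so the likeness is weak.

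Among the genes that control NRF2, MAFF and MAFK, which encode binding partners, rose with olaparib in both lines, while NFE2L2 moved in opposite directions. Of 13 regulators tested, 6 rose and 1 fell in OVCAR3, against 15.5% and 16% of all genes tested. In UWB1.289 4 rose and 3 fell, against 7.77% and 6.1%. NFE2L2 was at 688, 641, 701 and 719 normalized counts in OVCAR3 with DMSO and at 542, 616, 601 and 590 with olaparib. In UWB1.289 it was at 725, 762, 878 and 834 with DMSO and at 883, 882, 1007 and 1079 with olaparib. The olaparib libraries lay below all controls in OVCAR3 and above all controls in UWB1.289. On the log2 scale NFE2L2 fell by 0.22 in OVCAR3 (SE 0.08, adjusted p 0.0439 in edgeR) and rose by 0.27 in UWB1.289 (SE 0.09, adjusted p 0.0652 in edgeR), and the difference of 0.50 passed (SE 0.12, adjusted p 0.00834 in edgeR). The call in OVCAR3 was lost in the 3 of 8 fits without DMSO replicate 3, DMSO replicate 4 or olaparib replicate 1 (adjusted p 0.110 to 0.131 in edgeR), and that in UWB1.289 in the 5 of 8 fits without DMSO replicate 1, 2 or 4 or olaparib replicate 3 or 4 (0.103 to 0.231). The interaction held in all 16 fits without 1 library. These are transcript levels, while NRF2 is controlled mainly as a protein, which was not measured here.

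MAFF, a small MAF partner of NRF2, was the regulator with the largest change. It was at 31.1, 53.3, 42.2 and 51.1 normalized counts in OVCAR3 with DMSO and at 133, 142, 149 and 99.5 with olaparib, a 2.94-fold rise (log2 1.56, SE 0.18, adjusted p 3.2e-06 in edgeR), and it was differentially expressed. In UWB1.289 it was at 103, 107, 72.4 and 90.7 with DMSO and at 185, 181, 148 and 189 with olaparib, a 1.89-fold rise (log2 0.92, SE 0.14, adjusted p 0.000118 in edgeR). The groups were apart in both lines, and the difference between the lines of -0.64 did not pass (adjusted p 0.103 in edgeR). It did pass in 9 of 21 alternative fits, among them the replicate block (-0.63, adjusted p 0.0831 in edgeR) and DESeq2 (adjusted p 0.0761). The partner MAFK also rose in OVCAR3 and UWB1.289 (0.37 and 0.41). MAFG passed in both (0.27 and 0.30), but the call was lost in 6 of 14 alternative fits in OVCAR3 and in 9 of 14 in UWB1.289. Alternative fits here are those without 1 library and those with another setting or threshold, and a library left out moved MAFG to between 0.19 and 0.35 in OVCAR3 and between 0.22 and 0.38 in UWB1.289.

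**Figure D3:**
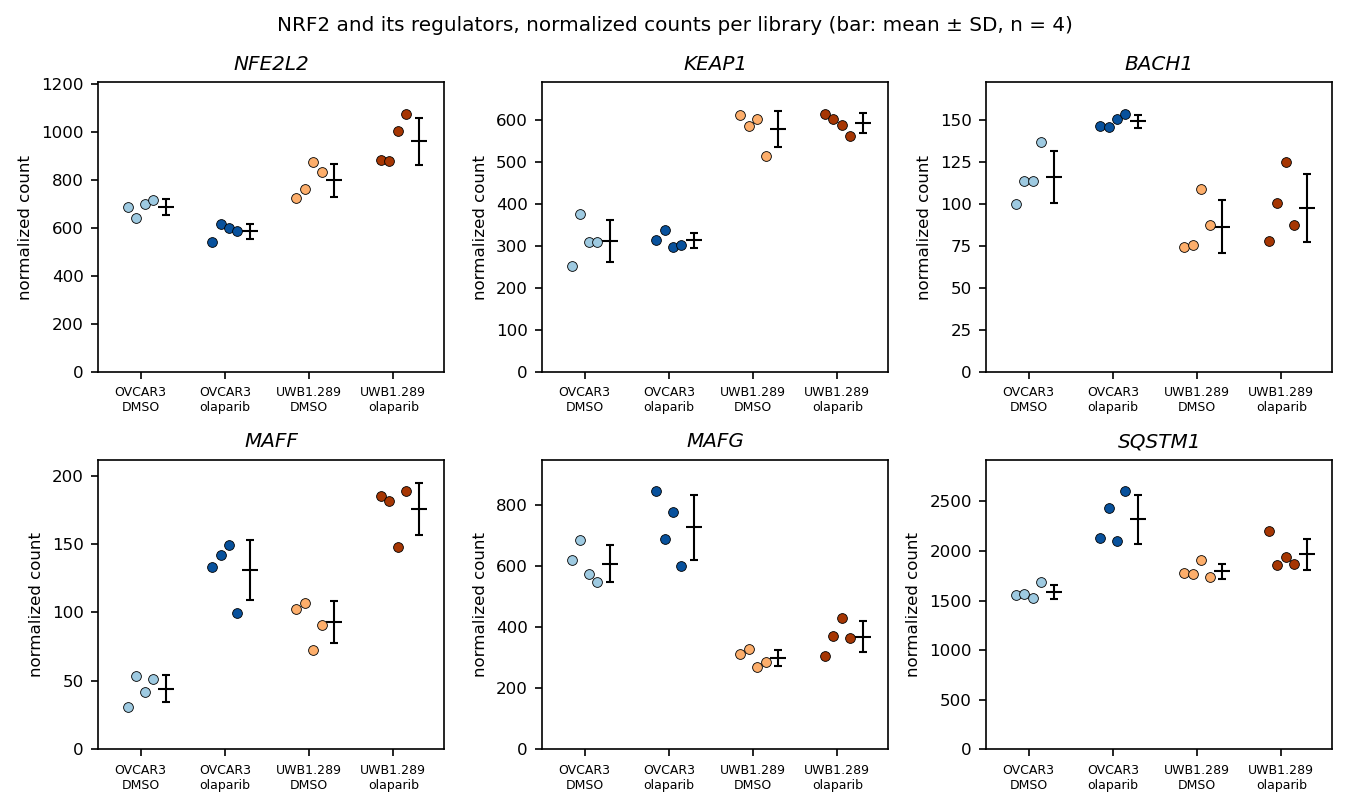
Normalized counts (y axis, linear, from 0) of NFE2L2 and 5 of its regulators in each of the 16 libraries, by line and treatment on the x axis, with the mean and SD of the 4 libraries beside the points. NFE2L2 is lower with olaparib in OVCAR3 and higher in UWB1.289, and MAFF is higher with olaparib in both lines.

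SQSTM1, which encodes the p62 protein that binds KEAP1 and delivers it to autophagy, was at 1559, 1568, 1529 and 1690 normalized counts in OVCAR3 with DMSO and at 2130, 2439, 2100 and 2605 with olaparib. It rose by 0.55 (SE 0.08, adjusted p 3.31e-05 in edgeR) with no overlap. In UWB1.289 the log2 fold change was 0.13 (adjusted p 0.325 in edgeR), and the difference of -0.42 between the lines passed (adjusted p 0.0171 in edgeR). BACH1, the repressor at the same elements, rose by 0.36 in OVCAR3 (not without DMSO replicate 1, adjusted p 0.130 in edgeR) and stood at 0.18 in UWB1.289, where it did not pass, and its difference of -0.18 between the lines did not pass either. KEAP1 stood at 0.01 and 0.04 and did not pass, and its sign turned without 1 library. Of the rest, NFE2L3, a factor of the NRF2 family, rose by 0.80 in OVCAR3. The ligase subunit CUL3 fell by 0.42 in UWB1.289 (not without DMSO replicate 4, adjusted p 0.102 in edgeR), and GSK3B, a kinase that marks NRF2 for breakdown, differed in its olaparib effect between the lines by -0.53.

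On DMSO KEAP1 was higher in UWB1.289 than in OVCAR3 by 0.89 on the log2 scale (adjusted p 2.89e-09 in edgeR), NFE2L2 by 0.22, SQSTM1 by 0.18 and MAFF by 1.06. MAFG was lower by 1.02, BACH1 by 0.43, and the ubiquitin ligase subunit gene BTRC differed by -1.17. Of the 13 regulators 6 were higher and 6 lower in UWB1.289, against 39.8% and 40.1% of all genes tested.

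Beyond the 9 genes, 87 others of the pathway and of antioxidant defence were looked at in lists, regulators included. In OVCAR3 21 of the 73 tested rose and 12 fell with olaparib, against 15.5% and 16% of all genes, with a median log2 fold change of 0.06. In UWB1.289 12 of 75 rose and 10 fell, against 7.77% and 6.1%, with a median of 0.04. Between the lines on DMSO 38 of 74 were higher and 27 lower in UWB1.289, against 39.8% and 40.1%. In the interaction 5 of 75 were higher and 9 lower, against 5.1% and 5.83%. The same shares of all genes stand behind the counts of each list.

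Of 14 other glutathione genes tested, 5 rose and 2 fell in OVCAR3, and 2 rose and 2 fell in UWB1.289. ABCC3, an exporter of conjugates, was at 23.6, 10.2, 22.5 and 14.9 normalized counts in OVCAR3 with DMSO and 59.4, 45.5, 46.1 and 74.6 with olaparib. It was at 107, 107, 153 and 125 in UWB1.289 with DMSO and 89.9, 76.1, 79.0 and 89.4 with olaparib. The olaparib libraries were all above the controls in OVCAR3 and all below them in UWB1.289. The log2 fold changes were 1.66 in OVCAR3, where ABCC3 was differentially expressed (adjusted p 0.000123 in edgeR), and -0.55 in UWB1.289, and the difference of -2.21 passed (adjusted p 7.92e-06 in edgeR).

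SLC3A2, the heavy chain that carries SLC7A11 to the membrane, rose by 0.23 in OVCAR3 and by 0.43 in UWB1.289 (adjusted p 0.0507 and 0.00165 in edgeR), where SLC7A11 itself did not pass. The OVCAR3 call of SLC3A2 is lost at an adjusted p below 0.05, and its other alternative fits were not looked at. GSTM3, a glutathione transferase of a family of related genes whose reads may be split, rose by 0.38 and 0.53. The former call was lost without OVCAR3 DMSO replicate 3 (adjusted p 0.103 in edgeR). The transferase GSTA4 passed in OVCAR3 at -0.81, a call lost in 4 of 14 alternative fits, among them those without DMSO replicate 1 or 4 or olaparib replicate 1 (adjusted p 0.130 to 0.169 in edgeR), and the transferase GSTO1 differed in its olaparib effect between the lines by -0.48. On DMSO the peroxidase GPX1 was higher in UWB1.289 by 3.55 and ABCC3 by 2.77, and the glutaredoxin GLRX was lower by 1.39.

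Of 12 other thioredoxin genes, 1 rose and 3 fell in OVCAR3 and 2 rose and 1 fell in UWB1.289. TXNIP, which binds and inhibits thioredoxin, fell by 0.71 in OVCAR3 and rose by 0.32 in UWB1.289, and the difference of 1.03 passed (adjusted p 0.000616 in edgeR). The rise in UWB1.289 was lost in 3 of 14 alternative fits, that over all 16 libraries (adjusted p 0.142 in edgeR) and those without olaparib replicate 3 or 4 (adjusted p 0.148 and 0.150 in edgeR). The peroxiredoxin PRDX5 fell in both lines, by 0.61 and 0.34, in UWB1.289 not without DMSO replicate 1 or olaparib replicate 3 or 4 (adjusted p 0.112 to 0.123 in edgeR). PRDX1 rose by 0.34 in OVCAR3 and its difference between the lines was -0.37, lost without UWB1.289 olaparib replicate 3 or OVCAR3 DMSO replicate 1 (adjusted p 0.104 and 0.106 in edgeR), and SESN2, a stress-induced sestrin, rose by 0.48 in UWB1.289. TXNRD2, the mitochondrial relative of TXNRD1, stood at -0.23 and 0.14 and did not pass in either line. On DMSO PRDX2, SESN2 and TXNRD2 were higher in UWB1.289 by 2.40, 1.41 and 1.01.

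Of 11 other NADPH genes, 2 rose and 2 fell in OVCAR3 and 0 rose and 2 fell in UWB1.289. IDH1, a cytosolic source of NADPH, fell in both lines, by 0.77 and 0.51. NNT, the mitochondrial transhydrogenase, passed in OVCAR3 at -0.31, but in only 4 of 14 alternative fits, and DESeq2 gave an adjusted p of 0.122. MTHFD1, an enzyme of the folate cycle, passed in UWB1.289 at -0.26 and in the interaction at -0.38, calls lost in 8 of 14 and 9 of 21 alternative fits. ME2, the mitochondrial relative of ME1, stood at 0.14 and -0.04 and did not pass. On DMSO PGLS and ME3 were higher in UWB1.289 by 1.96 and 1.33, and ME2 by 0.62.

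Of 10 other heme and iron genes tested, 3 rose and 2 fell in OVCAR3 and 2 rose and 1 fell in UWB1.289. HMOX2, the constitutive heme oxygenase, was at 335, 379, 374 and 328 normalized counts in OVCAR3 with DMSO and at 550, 582, 590 and 647 with olaparib. It rose by 0.75 (SE 0.09, adjusted p 3e-06 in edgeR) with far less spread than HMOX1, and stood at 0.17 in UWB1.289 with a difference of -0.58 between the lines that passed (adjusted p 0.00317 in edgeR). SLC40A1, the iron exporter ferroportin, was at 45.0, 34.0, 28.2 and 26.0 in OVCAR3 with DMSO and at 5.04, 15.2, 11.1 and 10.7 with olaparib. It fell by 1.64 and was differentially expressed in OVCAR3, and its difference between the lines was 2.41 at low counts. The ferritin heavy chain FTH1, a gene with many processed copies that can take its reads, rose by 0.42 in OVCAR3. In UWB1.289 it passed at 0.21, a call lost in 8 of 14 alternative fits. The ferritin light chain FTL differed in its olaparib effect between the lines by -0.47. In UWB1.289 the heme transporter SLC48A1 passed at -0.34 and the transferrin receptor TFRC at 0.26, calls lost in 4 and 6 of 14 alternative fits. On DMSO FTL was higher in UWB1.289 by 2.07, and SLC40A1, FTH1 and HMOX2 were lower by 2.36, 1.09 and 0.33.

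Of the other detoxification genes 2 rose and 1 fell among 10 tested in OVCAR3, and 1 rose and 1 fell among 12 in UWB1.289. PTGR1, a reductase of reactive alkenals, fell by 0.57 in OVCAR3, where the ligase gene TRIM16 and UGDH, which makes UDP-glucuronate, rose by 0.35 and 0.33. The difference between the lines was 0.64 for PTGR1. OSGIN1, an oxidative stress-induced growth inhibitor, was at 13.7, 8.65, 16.6 and 14.5 normalized counts in UWB1.289 with DMSO and at 38.5, 21.9, 27.0 and 23.8 with olaparib. It rose 2.07-fold without overlap (adjusted p 0.0352 in edgeR) and was differentially expressed, a call lost without DMSO replicate 2 or olaparib replicate 1 (adjusted p 0.111 and 0.118 in edgeR), while PIR, a pirin, passed at -0.62 and lost its call in 8 of 14 alternative fits, DESeq2 among them (adjusted p 0.103). On DMSO AKR1C3 was higher in UWB1.289 by 1.27, and PTGR1 and UGDH were lower by 1.67 and 1.19.

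Outside the NRF2 lists, all 3 antioxidant enzymes SOD1, SOD2 and CAT passed in OVCAR3, of which 2 rose and 1 fell, and 1 rose in UWB1.289. SOD2, the mitochondrial superoxide dismutase, rose by 0.86 in OVCAR3 and by 1.02 in UWB1.289, SOD1 rose by 0.27 and catalase (CAT) fell by 0.45 in OVCAR3. On DMSO CAT and SOD1 were lower in UWB1.289 by 2.22 and 0.85 and SOD2 was higher by 0.56. Since SLC7A11 is also a target of the stress factor ATF4, 10 genes of that pathway were taken beside it. In OVCAR3 1 of 9 tested rose and 3 fell, and in UWB1.289 1 of 10 rose and 1 fell. ATF3, itself a stress factor, rose by 1.294 and 1.88 and was differentially expressed in both lines. The serine synthesis enzyme PSAT1 fell by 0.57 in OVCAR3, while its difference of 0.55 between the lines was lost in 14 of 21 alternative fits. The stress gene DDIT4 passed at -0.38 in OVCAR3 and -0.23 in UWB1.289, calls lost in 3 and 9 of 14 alternative fits. On DMSO DDIT4, TRIB3 and PHGDH were higher in UWB1.289 by 2.62, 1.87 and 0.65.

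**Figure D4:**
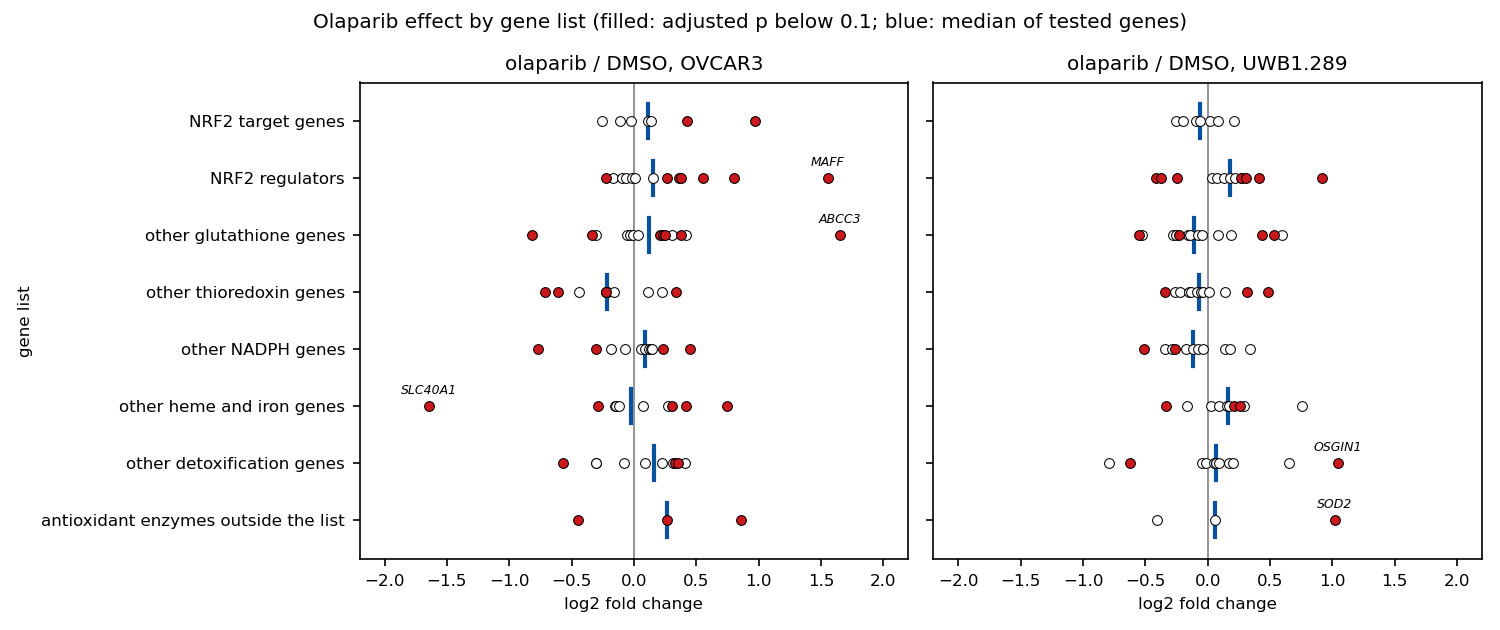
Log2 fold changes with olaparib (x axis) of every tested gene in the 9 NRF2 targets and in 7 further lists (y axis), in OVCAR3 (left) and UWB1.289 (right). Filled points have an adjusted p below 0.1, the blue bar is the median of the list, and genes beyond 2-fold are named: ABCC3, MAFF and SLC40A1 in OVCAR3, and OSGIN1 and SOD2 in UWB1.289.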

How the data were processed

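QuantSeq 3′ mRNA libraries were made by the authors for 16 samples (2 lines, olaparib or DMSO, 4 replicates per group). Per the submitters' notes and the study's methods, single-end reads were trimmed with BBDuk, aligned to hg38 with STAR 2.7.9a and counted per gene with featureCounts 2.0.0 and GENCODE release 38. The deposited values are raw counts of 59428 genes, and every library column was used. Strand, multiply matching reads and overlapping genes are treated in a way not given in the sources used here.

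The test on counts was edgeR 4.0.16 under R 4.3.3 (TMM, filterByExpr, quasi-likelihood F test, Benjamini-Hochberg over all genes tested) in 8 libraries per line, in the 8 DMSO libraries, and as an interaction over all 16. Normalized counts are counts over the effective library size times its mean over the 16 libraries, and log2 CPM had a prior count of 2. Total counts had a median of 6413980. No 2 libraries of a group were identical. On simulated data edgeR recovered 200 of 200 genes changed by a log2 fold of 2 in each comparison (12748 to 14243 genes). Each olaparib effect tested among the 9 genes was smaller, the largest being 0.97 (HMOX1 in OVCAR3). Recovery of changes of that size was not tested, so the simulation does not show that they would be found. The changed genes were also drawn from well counted genes at a fixed dispersion, so genes counted as little as HMOX1 were not among them. The 9 genes and the lists were chosen with earlier results of these data known. Genes outside the 9 were named by a rule: those differentially expressed with olaparib, 6 regulators, the closest paralogs, and up to 3 genes per list and comparison with the largest change among those that passed. A gene named in 1 comparison may be given in the others. Results for a gene that falls under this rule are not reported here.

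After removal of the group means, same-numbered DMSO and olaparib libraries correlated at 0.135 to 0.246 in UWB1.289 (9209 genes). In OVCAR3 the values were 0.0541 to 0.186 (9316 genes). In both lines DMSO replicates 2, 3 and 4 correlated best with the olaparib library of their own number, and replicate 1 did not. The numbers thus matched libraries only in part. Alternatives were DESeq2 1.42.0, its size factors, an adjusted p below 0.05, no filter, a fit over all 16 libraries, the replicate block, and leaving out each library. Motifs were searched in RefSeq promoters, and positions are from GENCODE release 44.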

Additional observations from a re-analysis of the deposited data

Results flagged for a closer look

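In 3 of the 28 groups of 4 libraries looked at, the most distant library stood further from the rest than Dixon's 95% limit allows, and chance alone flags about 1 in 20 groups. NQO1 in UWB1.289 with olaparib was at 354 normalized counts in replicate 3, against 534 to 557 in the others. HMOX1 in OVCAR3 with DMSO was at 5.58 in replicate 4, against 10.7 to 11.3, and without this library its rise with olaparib was lost (adjusted p 0.196 in edgeR). SLC7A11 in OVCAR3 with olaparib was at 128 in replicate 4, against 172 to 174.

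The olaparib effect differed between the lines by the interaction test for GCLM (-0.41, UWB1.289 minus OVCAR3 on the log2 scale, adjusted p 0.0867 in edgeR) and for SLC7A11 (0.47, adjusted p 0.0918 in edgeR).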

How the results depend on the processing

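In OVCAR3 the number of genes that rose, 2, was 1 at an adjusted p below 0.05 and with the replicate block, where HMOX1 had an adjusted p of 0.101 in edgeR, and 1 to 2 without 1 library. The number differentially expressed, 0, was 0 to 1 without 1 library. In UWB1.289 the number that fell, 0, was 1 with the replicate block (NQO1, -0.26) and 0 to 1 without 1 library. In the interaction the number higher, 1, and the number lower, 1, were each 0 without the filter on low counts (GCLM adjusted p 0.141, SLC7A11 0.155 in edgeR), 0 at an adjusted p below 0.05, and 0 to 1 without 1 library. The replicate block changed no other call of the 9 genes, and outside them the interaction of MAFF (-0.63) and the line difference of ATF3 (-0.40) passed with it. In both lines the numbers matched libraries only in part. The cause of these changes was not tested.

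Signs turned only in values that passed no test. Without 1 library they were ME1 in OVCAR3 (-0.15 to 0.14), GCLM (-0.000904 to 0.053), HMOX1 (-0.10 to 0.47), KEAP1 (-0.0193 to 0.0666) and ME2 (-0.111 to 0.0520) in UWB1.289, KEAP1 in OVCAR3 (-0.0779 to 0.109), GCLC between the lines (-0.14 to 0.00853), and KEAP1 (-0.0735 to 0.114) and MAFG (-0.0460 to 0.119) in the interaction, where KEAP1 was also at -0.00939 without the filter. GCLM in OVCAR3 passed under all 14 alternatives (adjusted p 0.00599 to 0.0978), as did the 6 genes higher in UWB1.289. Of the calls that the naming rule took outside the 9 genes, 20 of 27 in OVCAR3 and 9 of 21 in UWB1.289 held under every alternative. So did 30 of 30 between the lines and 11 of 14 in the interaction. The rises of MAFK and SLC3A2 in OVCAR3, given beside those in UWB1.289, are not in this count. Depth limits HMOX1 and AKR1C1 most, and 4 replicates and unequal doses limit the comparison of the lines.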
